A study of Mus musculus with 4 samples.

Results

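Transcripts that fell deeply 4 h after a transient oxidative pulse and were back near the control level at 20 h and 32 h were examined in NIH-3T3:Per2-Luc, a mouse fibroblast line that carries luciferase under the *Per2* promoter. Members were chosen by their measured values on all 4 arrays of the series. A probe was taken when the software of the scanner called it well above background on every array, when its log2 signal at 4 h lay at least 2 below the control (a 4-fold fall), and when its signals at 20 h and 32 h each lay within 0.6 of the control. Gene names starting with Ccn, Cdc, Cenp, Kif, Aur, Plk, Bub, Zfp or Col were left out by the same rule. This gave 117 probes of 98 gene symbols among 39429 probes on the array, of which 19697 were well above background on all 4 arrays. Of the 117 probes, 9 carried no gene symbol but a clone, transcript or probe name. These were counted, some of them in the role groups below, and are not described except for 1 clone among the results flagged for a closer look.

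The samples were 4 RNAs, 1 for each condition, and a single slide held their one-color arrays. Control cells received fresh medium without H2O2 and are labeled 4 h, and cOS-pulsed cells received 5 mM H2O2 for 10 min and were taken at 4 h, 20 h or 32 h. All 4 samples were of the same reporter line, so the luciferase transgene was shared by control and pulsed cells. No array of control cells at 20 h or 32 h was analysed here, so every ratio uses the same single control array and time in culture cannot be told apart from time after the pulse at the later points. There were no replicates and therefore no statistical test, and every value below is a description of these 4 arrays. The error after ± is the spot error of the scanner software for both arrays of a ratio, and it covers neither culture nor labeling. In RNA from a whole culture, fewer cells of a type and less RNA per cell cannot be told apart. Of 14 fibroblast markers with a probe, 13 were well above background on all 4 arrays, *Postn* being the exception. Of 16 markers of other cell types, 6 were well above background on all 4 arrays, among them the leukocyte integrin *Itgam* and the endothelial receptor *Kdr*.

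A cell that meets oxidative damage can stop the cycle, lower transcription and translation, and resume both after repair. A transcript level can fall within hours only where the RNA is also degraded, so short-lived mRNAs respond fastest to a halt in synthesis. Genes of cell division are transcribed mainly in G2 and mitosis, under regulators that act through CCAAT and CHR elements, and their mRNAs follow the share of cells in those phases. Cilia are likewise built and taken down with the cycle, whereas most mitochondrial and metabolic enzymes are made throughout it.

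The sequences that the results turn on are those of probes which lie in 1 gene but gave unequal ratios, those of neighboring or related genes, and 3 promoters of members. Probe sequences are given 5′ to 3′ as deposited with the array design, in mm9 positions, and capitals mark the hexamers AATAAA or ATTAAA of the polyadenylation signal. Exon and UTR annotation for mm9 was not used here. The 2 probes of *Rpusd3*, the gene with the deepest fall, lie next to each other.
Rpusd3 A_55_P2157610, chr6:113365323-113365382, minus strand: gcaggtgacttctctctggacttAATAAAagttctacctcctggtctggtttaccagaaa
Rpusd3 A_55_P2166421, chr6:113365391-113365450, minus strand: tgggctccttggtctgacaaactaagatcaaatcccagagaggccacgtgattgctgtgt
The probes of *Prc1* and *Rccd1* lie on opposite strands of chromosome 7 and point toward each other.
Prc1 A_55_P1988083, chr7:87461048-87461107, plus strand: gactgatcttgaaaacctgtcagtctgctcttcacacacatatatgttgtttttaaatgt
Rccd1 A_55_P2016466, chr7:87461595-87461654, minus strand: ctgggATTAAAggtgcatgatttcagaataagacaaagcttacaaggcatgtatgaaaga
*Ttc30b* and *Ttc30a2* are related genes on chromosome 2, and their probes have the same base at 22 of 60 positions.
Ttc30b A_52_P96748, chr2:75774288-75774347, minus strand: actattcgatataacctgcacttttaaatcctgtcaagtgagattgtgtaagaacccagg
Ttc30a2 A_55_P2080378, chr2:75814289-75814348, minus strand: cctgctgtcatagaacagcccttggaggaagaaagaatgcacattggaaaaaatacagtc
For *Setdb2*, *Capn10* and *Pdk2*, the member probe is given first and the other probe of the gene second.
Setdb2 A_55_P2045622, chr14:60020951-60021010, minus strand: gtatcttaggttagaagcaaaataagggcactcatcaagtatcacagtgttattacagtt
Setdb2 A_55_P2135808, chr14:60042140-60042199, minus strand: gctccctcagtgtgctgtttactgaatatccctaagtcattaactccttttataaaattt
Capn10 A_55_P1972054, chr1:94837490-94837549, plus strand: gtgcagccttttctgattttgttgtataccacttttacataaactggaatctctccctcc
Capn10 A_51_P370252, chr1:94844230-94844289, plus strand: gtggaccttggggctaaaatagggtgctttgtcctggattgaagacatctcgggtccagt
Pdk2 A_55_P2011802, chr11:94887669-94887728, minus strand: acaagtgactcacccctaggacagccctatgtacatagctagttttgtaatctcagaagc
Pdk2 A_51_P426276, chr11:94887980-94888039, minus strand: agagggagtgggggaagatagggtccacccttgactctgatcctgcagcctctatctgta
The promoters are from RefSeq (GRCm38.p6), from 250 bases before to 50 bases after the start of the gene. Capitals mark CCAAT and the CHR element TTTGAA on either strand in *Mki67* and *Prc1*, and the NRF1 element GCATGCGC on either strand in *Rfxank*, where its matches on the 2 strands overlap.
Mki67, chr7:135716330-135716629, minus strand: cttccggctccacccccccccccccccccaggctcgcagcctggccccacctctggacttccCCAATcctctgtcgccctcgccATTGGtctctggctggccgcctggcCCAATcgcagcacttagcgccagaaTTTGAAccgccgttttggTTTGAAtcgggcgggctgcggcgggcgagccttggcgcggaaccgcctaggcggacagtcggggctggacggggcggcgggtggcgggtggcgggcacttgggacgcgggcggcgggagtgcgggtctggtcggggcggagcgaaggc
Prc1, chr7:80294201-80294500, plus strand: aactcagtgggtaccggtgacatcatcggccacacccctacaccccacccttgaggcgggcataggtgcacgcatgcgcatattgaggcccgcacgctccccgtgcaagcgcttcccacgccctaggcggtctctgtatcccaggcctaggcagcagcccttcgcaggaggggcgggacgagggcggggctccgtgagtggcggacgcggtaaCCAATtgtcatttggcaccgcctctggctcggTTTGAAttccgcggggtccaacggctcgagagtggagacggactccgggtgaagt
Rfxank, chr8:70139148-70139447, minus strand: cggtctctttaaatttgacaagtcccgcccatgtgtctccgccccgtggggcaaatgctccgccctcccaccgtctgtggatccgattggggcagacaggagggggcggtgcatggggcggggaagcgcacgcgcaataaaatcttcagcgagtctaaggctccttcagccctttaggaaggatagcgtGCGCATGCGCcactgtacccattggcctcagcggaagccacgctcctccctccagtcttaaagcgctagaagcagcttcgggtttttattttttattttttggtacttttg

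Over the 117 member probes, the log2 ratio at 4 h ran from -3.21 to -2.0, with a median of -2.18, while the median over all 19697 probes well above background was 0.17. At 20 h the members ran from -0.48 to 0.58 with a median of 0.0055, and at 32 h from -0.58 to 0.57 with a median of -0.034. These bounds are those of the rule and are no result. Most members lay close to the threshold, since 17 fell by at least 2.5 and 4 by at least 3. Within a member, the control, 20 h and 32 h arrays spanned a median of 0.32 and at most 0.65. The 4 h array lay below the lowest of these 3 by 1.57 to 3.21. The median spot error of the 4 h ratios was 0.22, and a rule that asks for a fall of at least 2 places every member beyond it. The gap of the 4 h array below the other 3 is likewise set in part by the rule.

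**Figure D1:**
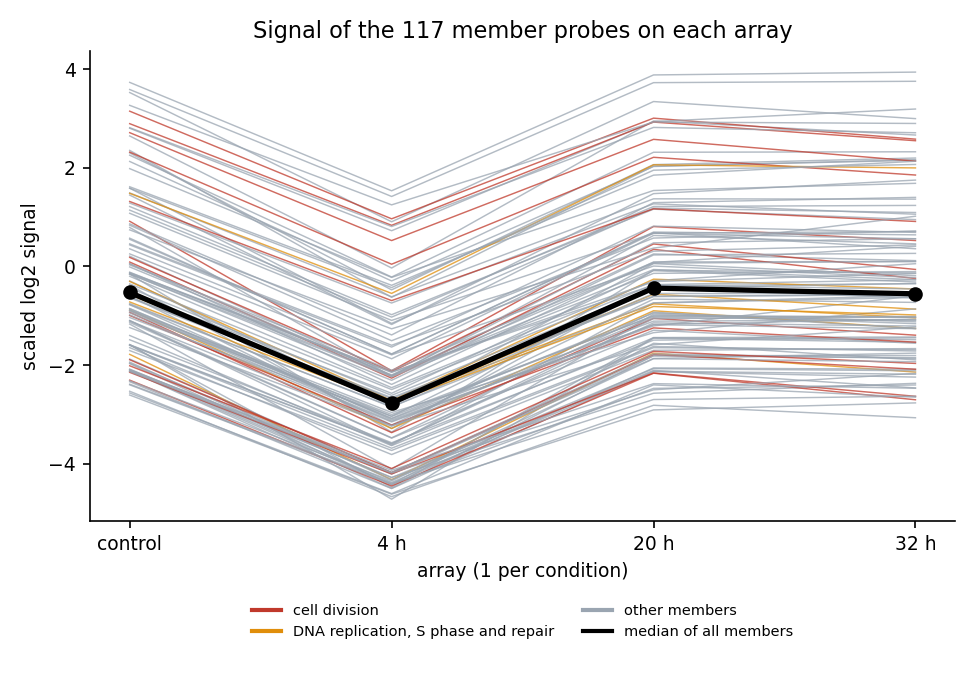
Scaled log2 signal (log2 signal minus the 75th percentile of the array, vertical axis) of each of the 117 member probes on the 4 arrays (horizontal axis), 1 line per probe, with members of the 2 division groups in color and the median of all members in black. The median is -0.53 in the control, -2.77 at 4 h, -0.44 at 20 h and -0.55 at 32 h, a shape that the rule fixed.

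Of the 19697 probes, 183 (0.929%) fell by at least 2 at 4 h, and 126 of these (68.9%) lay within 0.6 of the control at both later times. The same window held 88.8% of all 19697 probes, and 71.8% of the 216 probes (1.1%) that rose by at least 2 at 4 h. The members were 0.594% of the probes and 0.898% of the 10912 gene symbols with a probe well above background on all arrays. Another 9 probes met the values of the rule and were left out by name, namely *Bub1b*, *Plk1*, *Ccnb1*, *Zfp41*, *Kif20a*, *Kif22*, *Cdc25b*, *Cenpe* and *Zfp618*, with ratios at 4 h from -3.31 to -2.06. Of the 57 deep falls outside the window, 27 were below -0.6 at both later times, 18 at 32 h only and 4 at 20 h only, and 8 were above 0.6 at 1 or both later times. *Ctgf*, *Acta2* and *Wisp2* were among those below at both, with ratios at 32 h of -3.22, -3.11 and -3.18. These 3 were picked after their values were seen, to show how far a fall outside the window could last.

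**Figure D2:**
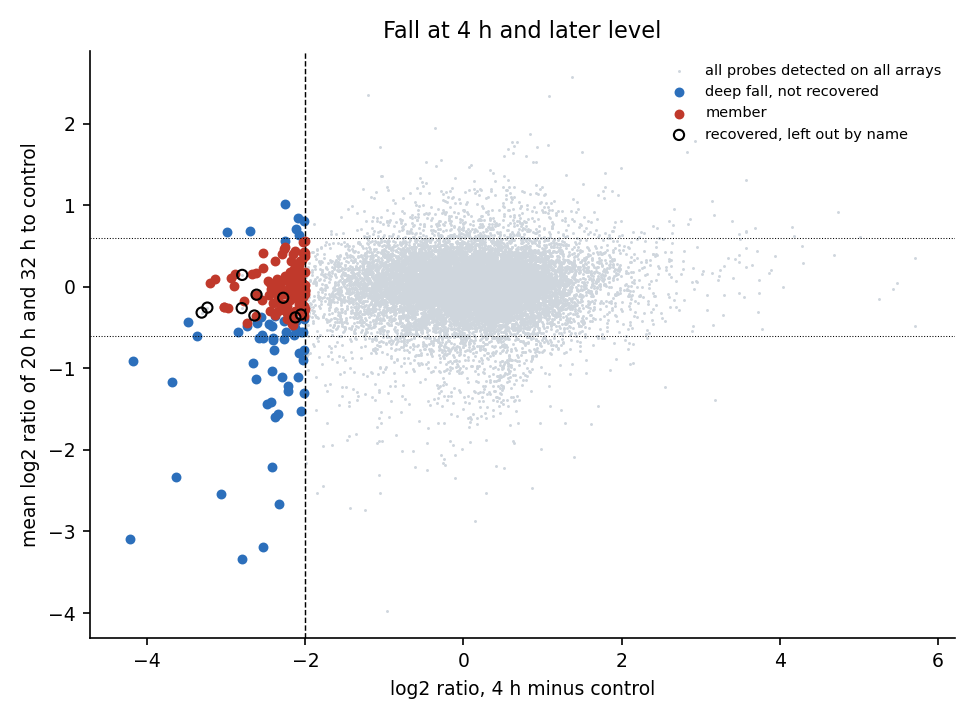
Log2 ratio of 4 h to control (horizontal axis) against the mean log2 ratio of 20 h and 32 h to control (vertical axis), 1 point per probe well above background on all 4 arrays; the dashed line is the fall of 2 and the dotted lines are 0.6 either side of the control. The 117 members (red) fill the left end of the window, the 57 deep falls outside it (blue) lie mainly below, and open circles are the 9 probes left out by name; a probe within the lines by its mean can still be outside at 1 of the 2 times.

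The members with a gene symbol just inside the threshold were *Fam102a* at -2.0004 ± 0.20, *Ttll1* at -2.0021 ± 0.23, *Txnip* at -2.01 ± 0.20, *Macrod2* at -2.01 ± 0.24 and *Mypop* at -2.01 ± 0.22. Among those just outside it were a second probe of *Mmp11* at -1.9999, *Acpl2* at -1.99 and *Cdkn3* at -1.99. The gap between the 2 sides is far smaller than the spot errors, so the edge of the set is arbitrary. A further 12 probes were well above background on the other 3 arrays, recovered in the same window, and were not well above background at 4 h. *Ydjc*, *Ehd3* and *Mtus1* lay below the lowest signal that the software called well above background at 4 h. By that limit their falls were at least 7.27-fold, 6.82-fold and 5.53-fold. *Nuak1* lay above the limit though it was not called, so its 4.11-fold is a measured fall and no bound, a ratio of -2.04 ± 0.37. These genes were named after their values were seen. The 12 probes are not counted as members.

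The deepest fall belonged to *Rpusd3*, a mitochondrial pseudouridine synthase. Its scaled log2 signals (log2 signal minus the 75th percentile of the array) were -0.15 in the control, -3.36 at 4 h, -0.075 at 20 h and -0.13 at 32 h, a ratio at 4 h of -3.21 ± 0.23 or 9.24-fold lower. The second *Rpusd3* probe read -0.60 in the control, -3.22 at 4 h, -0.66 at 20 h and -0.73 at 32 h, a ratio of -2.62 ± 0.22. Both probes were low on the 4 h array alone, and the other 3 arrays lay within 0.13 of each other. *Engase*, an endoglycosidase that frees N-glycans, gave -1.59 in the control, -4.72 at 4 h, -1.46 at 20 h and -1.54 at 32 h, a ratio of -3.14 ± 0.32. *Scrn3* gave 0.79 in the control, -2.23 at 4 h, 0.63 at 20 h and 0.46 at 32 h by its member probe, a ratio of -3.02 ± 0.21, and *Tmem53*, named as a transmembrane protein, gave 2.36 in the control, -0.63 at 4 h, 2.04 at 20 h and 2.15 at 32 h, a ratio of -2.98 ± 0.20. These genes were named for being among the deepest falls, so the like size of their ratios follows from that choice. Their signals differ widely, from near the lower end of the array to its bright part.

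The group of mitochondrial and coenzyme A genes, drawn up after the values were seen as were all role groups below, held 12 probes of 10 genes, with ratios at 4 h from -3.21 to -2.02. *Amacr*, the racemase of branched-chain acyl-CoA, has 10 spots on each array. They ran from 2.58 to 2.71 in the control, from -0.079 to 0.34 at 4 h, from 2.92 to 3.04 at 20 h and from 2.61 to 2.72 at 32 h. No spot at 4 h came near any spot of the other 3 arrays, and the ratio of the means was -2.68 ± 0.20. *Pdk2*, an inhibitory kinase of pyruvate dehydrogenase, gave -1.09 in the control, -3.63 at 4 h, -0.74 at 20 h and -0.63 at 32 h, with the later arrays above the control. *Mrpl55*, of the mitochondrial ribosome, gave 2.26 in the control, -0.21 at 4 h, 2.32 at 20 h and 2.33 at 32 h. The 2 probes of *Cbr4*, a reductase of mitochondrial fatty acid synthesis, fell to -2.19 ± 0.21 and -2.02 ± 0.30. Most genes of the same pathways did not share so deep a fall, as in all gene symbols, of which 0.898% were members. Lists of these sizes can reach the counts below at that share, and nothing is read from them. *Mrpl55* was 1 of 76 mitochondrial ribosomal protein genes detected, whose median ratio at 4 h was -0.24, and the 53 genes detected on a list of mitochondrial gene expression had a median of 0.056. Of the latter, *Mtrf1*, a mitochondrial release factor, fell further, by a ratio of -3.64, and was still -2.37 from the control at 32 h. None of 88 genes of oxidative phosphorylation subunits was a member, and their median was 0.10. Other metabolic members were *Pddc1*, whose 2 probes gave -2.89 ± 0.33 and -2.25 ± 0.31, and with these and *Engase* 8 probes fell to between -3.14 and -2.06.

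Genes of cell division formed the largest role group, with 14 probes of 13 genes and ratios at 4 h from -3.03 to -2.01. *Fam64a*, a mitotic protein, gave 0.92 in the control, -2.12 at 4 h, 0.81 at 20 h and 0.53 at 32 h, a ratio of -3.03 ± 0.21. *Melk*, a kinase of dividing cells, gave -0.93 in the control, -3.37 at 4 h, -1.05 at 20 h and -1.39 at 32 h. *Aspm*, a spindle pole protein, gave 0.090 in the control, -2.27 at 4 h, 0.35 at 20 h and -0.24 at 32 h. In these 3 the 4 h array was lowest by at least 1.98, and 32 h was the lowest of the other arrays. *Mki67*, which encodes the proliferation antigen Ki-67, gave 2.72 in the control, 0.53 at 4 h, 2.58 at 20 h and 2.14 at 32 h by one probe and 3.15 in the control, 0.97 at 4 h, 3.01 at 20 h and 2.58 at 32 h by the other. The 2 *Mki67* probes, which lie apart on the genome, had ratios of -2.19 ± 0.20 and -2.18 ± 0.20. *Anln*, the scaffold of the cleavage furrow, gave 2.32 in the control, 0.046 at 4 h, 2.22 at 20 h and 1.86 at 32 h, and *Prc1*, a bundler of the central spindle, 2.90 in the control, 0.84 at 4 h, 2.93 at 20 h and 2.55 at 32 h. Kinetochore and centromere genes were present as *Nuf2* (-2.23 ± 0.22), *Casc5* (-2.15 ± 0.31), *Oip5* (-2.29 ± 0.31), *Sgol1* (-2.01 ± 0.21) and *Sgol2* (-2.06 ± 0.27), and the kinase *Mastl* had -2.08 ± 0.28. A second *Nuf2* probe, not a member, fell to -1.67 ± 0.23 and did not return to the window, with -0.68 at 20 h and -0.93 at 32 h.

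Of 72 genes detected on a list of mitosis genes outside the names left out, 12 were members (16.7%, against 0.898% of all gene symbols), and 2 more, *Ckap2l* and *Depdc1b*, fell as deeply and were outside the window at 32 h. The list as a whole had a median ratio at 4 h of -1.28, with 44 genes at least 2-fold down and 1 at least 2-fold up, whereas over the 10912 gene symbols the median was 0.068 and 10.3% were at least 2-fold down. The median of the list was -0.059 at 20 h and -0.37 at 32 h. The fall of cell division genes was thus shared by most of the list, and the members were its deep end. The list was written with results of these arrays known, and so its count is not independent of them.

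DNA replication and G1/S genes had a median of -1.02 over 56 genes at 4 h, and 4 were members (7.14%, against 0.898% of all gene symbols). This list too was written with results of these arrays known. *Pole2*, a subunit of DNA polymerase epsilon, gave -0.88 in the control, -3.29 at 4 h, -0.90 at 20 h and -1.26 at 32 h. *Rbl1*, the pocket protein p107, had a ratio of -2.28 ± 0.22, *E2f8*, a repressor of its family, -2.16 ± 0.22, and *Gmnn*, the licensing inhibitor geminin, -2.05 ± 0.22. Each of the 4 was lower at 32 h than at 20 h. *Brca2*, a mediator of homologous recombination, gave -1.78 in the control, -4.33 at 4 h, -1.76 at 20 h and -2.14 at 32 h. It was 1 member among 86 DNA repair genes (1.16%, near the share of all gene symbols), whose median was -0.57. *Cdkn2d*, the CDK4/6 inhibitor p19, gave 1.48 in the control, -0.55 at 4 h, 2.06 at 20 h and 2.0 at 32 h and lay above the control at both later times, by 0.58 at 20 h and 0.52 at 32 h.

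The centriole, cilium and tubulin group held 9 probes of 8 genes. *Ttc30b*, an intraflagellar transport protein, gave -0.38 in the control, -3.29 at 4 h, -0.39 at 20 h and -0.35 at 32 h, a ratio of -2.91 ± 0.23, and *Ttc30a2*, its relative 40.0 kb away, -1.97 in the control, -4.43 at 4 h, -2.06 at 20 h and -2.09 at 32 h, a ratio of -2.45 ± 0.32. With 22 identical bases of 60, the 2 probes do not share their sequence. *Cc2d2a*, of the ciliary transition zone, fell to -2.19 ± 0.23 and -2.03 ± 0.20 by its 2 probes. *Rpgrip1l*, of the same zone, had -2.10 ± 0.25, *Azi1*, a centriolar satellite protein, -2.43 ± 0.21, and *Tube1*, epsilon-tubulin, -2.37 ± 0.23. These 3 are outside the naming rule and were picked for their role. No member was among the 43 detected genes with array names starting Cep, Ift, Bbs, Tctn or Tmem67, beside 0.898% of all gene symbols. *Azi1*, whose present RefSeq symbol starts with Cep, is not counted among the 43. The median of the 43 at 4 h was -0.79, with 15 at least 2-fold down and 1 at least 2-fold up. Over all gene symbols 10.3% were at least 2-fold down. At 20 h the median of the 43 was 0.16 and at 32 h 0.10, on the other side of the control from the mitosis list at 32 h.

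Signaling and developmental lists held 1 member each or none, beside 0.898% of all gene symbols, a count that lists of their size can reach at that share. *Fzd2*, a Wnt receptor, gave 1.49 in the control, -0.61 at 4 h, 1.37 at 20 h and 1.37 at 32 h by its brighter probe and a ratio of -2.11 ± 0.20, and -2.15 ± 0.28 by the dimmer one. It was 1 of 37 Wnt signaling genes, whose median was -0.55. *Cdon*, a Hedgehog co-receptor, gave -0.20 in the control, -2.46 at 4 h, -0.29 at 20 h and 0.056 at 32 h. *Gdf5*, a ligand of the BMP family, had a ratio of -2.01 ± 0.21, *Maml3*, a Notch co-activator, -2.05 ± 0.22, and *Meis2*, a homeobox factor, -2.35 ± 0.21. They were 1 of 11 Hedgehog, 43 TGF-beta and BMP, 17 Notch and 115 developmental transcription factor genes detected. *Npas4*, a bHLH-PAS factor known from active neurons, gave -0.29 in the control, -2.83 at 4 h, 0.058 at 20 h and -0.19 at 32 h. *Bicc1*, an RNA-binding protein, gave 3.27 in the control, 1.25 at 4 h, 2.93 at 20 h and 2.90 at 32 h by one probe, with a ratio of -2.02 ± 0.20, and -2.17 ± 0.21 by the other. *Rassf2* had -2.08 ± 0.22 and was -0.46 at 20 h and 0.024 at 32 h.

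Members of the cytoskeleton, caveolae and matrix were *Tns1*, *Sdpr*, *Fhod1*, *Pdlim2*, *Ccdc80* and *Mmp11*. *Tns1*, the focal adhesion protein tensin 1, gave 1.59 in the control, -1.16 at 4 h, 1.18 at 20 h and 1.10 at 32 h, a ratio of -2.74 ± 0.21, and stayed -0.40 and -0.49 from the control later. *Sdpr*, a caveola protein, gave 3.53 in the control, 0.91 at 4 h, 3.35 at 20 h and 3.0 at 32 h. *Pdlim2*, a PDZ and LIM domain protein, gave 2.81 in the control, 0.73 at 4 h, 2.94 at 20 h and 3.20 at 32 h. *Tns1* and *Sdpr* thus ended furthest below the control in this group, with *Fhod1* and *Ccdc80* closer to it, while *Pdlim2* and *Mmp11*, a matrix metallopeptidase with -2.02 ± 0.20 at 4 h and 0.48 at 32 h, ended above it. *Tns1* was the only member among 52 SRF targets and actin regulators (median -0.39), *Ccdc80* (-2.06 ± 0.29) among 27 YAP/TEAD targets (median -0.25), and *Mmp11* among 59 genes of the matrix outside collagens (median -0.11). Members were 0.898% of all gene symbols, and nothing is read from these counts.

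Stress and interferon genes were few. *Ifit2*, induced by interferon, gave 0.056 in the control, -2.39 at 4 h, 0.091 at 20 h and 0.10 at 32 h, a ratio of -2.45 ± 0.21, and *Txnip*, the inhibitor of thioredoxin, 2.82 in the control, 0.81 at 4 h, 2.82 at 20 h and 2.71 at 32 h. *Txnip* at 20 h and 32 h was within 0.20, its spot error, of the control. No member was on the list of immediate early and AP-1 genes, from which the immediate early gene *Npas4* was missing (36 detected, median 0.67 at 4 h), of circadian clock genes (20 detected, median 0.51), of cholesterol synthesis (30) or of cytosolic ribosomal protein genes (96, median 0.40). Nor did any member come from the lists of receptor tyrosine kinase signaling, RNA polymerase II and Mediator, apoptosis regulators, mRNA decay, Ring and Trim ligases, deubiquitinases, Dusp phosphatases, protocadherins, G protein-coupled receptors, semaphorins, histones, Fox, Hox and Klf factors, or Adcy and Pde genes, whose medians at 4 h lay between -0.39 and 0.80. Members were 0.898% of all gene symbols, so lists of these sizes can be without one at that share, and nothing is read from it. Of *Timeless*, on the clock list, the fall at 4 h was -2.05, and at 32 h it was outside the window at -0.64.

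Membrane traffic and nutrient sensing gave 9 probes of 8 genes. *Rab7l1*, a small GTPase, gave 0.86 in the control, -1.39 at 4 h, 1.30 at 20 h and 1.40 at 32 h by one probe, with a ratio of -2.25 ± 0.21, and -2.16 ± 0.21 by the other, and both lay above the control at 20 h and 32 h. *Exoc3*, of the exocyst, gave 0.74 in the control, -1.26 at 4 h, 0.37 at 20 h and 1.02 at 32 h, below the control at 20 h and above it at 32 h. The other *Exoc3* probe fell to -1.23 ± 0.21 and lay within its spot error of the control at 20 h and 32 h. Chromatin and transcription members included *Rfxank*, a subunit of the RFX complex, with -1.17 in the control, -4.11 at 4 h, -0.97 at 20 h and -1.16 at 32 h, and *Phf15*, a PHD finger protein, with 2.30 in the control, -0.47 at 4 h, 2.07 at 20 h and 2.20 at 32 h. *Rfxank* matched the control at 32 h, whereas *Phf15* was slightly below it at both later times. *Setdb2*, a SET domain protein, had a ratio of -2.24 ± 0.24 and was the only member among 145 chromatin regulators, whose median was 0.086. Among the 30 probes in no role group, *Zcchc24* gave 3.74 in the control, 1.54 at 4 h, 3.89 at 20 h and 3.94 at 32 h by one probe and a ratio of -2.17 ± 0.20 by the other, which overlaps it on the genome. The 2 probes of *Tatdn3* overlap likewise and gave -2.27 ± 0.21 and -2.13 ± 0.21. The transporter genes *Slc43a2* (-2.13 ± 0.23) and *Slco3a1* (-2.21 ± 0.20) were 2 of 193 with names starting Slc, and *Klhl36* (-2.03 ± 0.31) was the member among 113 F-box and Kelch genes. The counts for chromatin, Slc and F-box and Kelch genes are near the 0.898% of all gene symbols, and nothing is read from them.

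**Figure D3:**
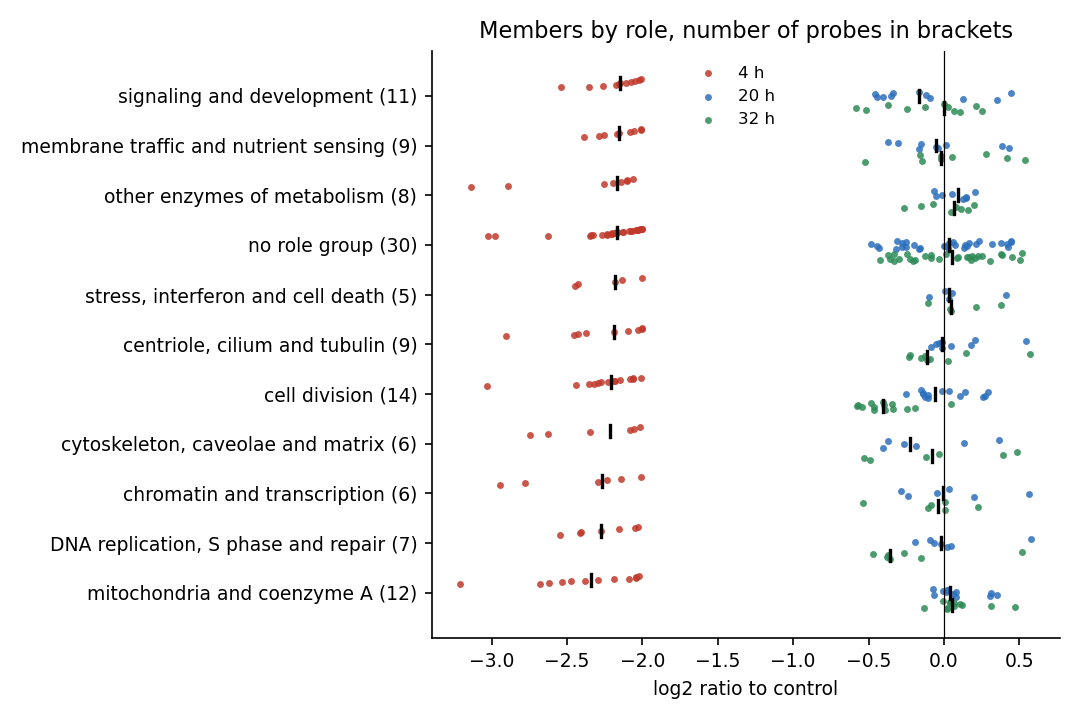
Log2 ratio to control (horizontal axis) of each member probe at 4 h (red), 20 h (blue) and 32 h (green), by role group drawn up after the values were seen, with the number of probes in brackets and a black bar at each median. At 4 h the groups overlap throughout, with medians from -2.34 to -2.15, whereas at 32 h the cell division group has its median at -0.40 and the replication group at -0.36, below those of the other groups.

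At 4 h, where the rule set the upper limit of the ratio, the role groups of the members overlapped. The later arrays, which the rule held within 0.6 of the control, are described by the difference of 20 h and 32 h. Of all probes well above background, 52.9% were higher at 20 h than at 32 h, with a median difference of 0.0096, and of the members 59.0%. All 14 probes of the cell division group were higher at 20 h than at 32 h, by 0.24 to 0.59, and each difference exceeded its spot error. All 7 probes of the replication, S phase and repair group were likewise higher at 20 h, 4 of them beyond the error. Of the 96 probes outside these 2 groups, 48 were higher at 20 h, 14 beyond the error, and 10 were lower at 20 h beyond it, with a median difference of 0.0011. Among probes with a gene symbol, the largest differences were 0.59 ± 0.20 for *Aspm*, 0.54 ± 0.22 for *Casc5*, 0.47 ± 0.22 for *Sgol2*, and 0.44 and 0.43 for the 2 probes of *Mki67*. In the other direction were *Exoc3* with -0.65 ± 0.20, *Lrrn3*, a leucine-rich repeat protein, with -0.61, *Rassf2* with -0.48, *Slc43a2* with -0.36 and *Cdon* with -0.35. The other *Exoc3* probe, not a member, had -0.19 ± 0.21. The rule allowed both signs, and it used both arrays, so these differences are a description and were not tested.

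**Figure D4:**
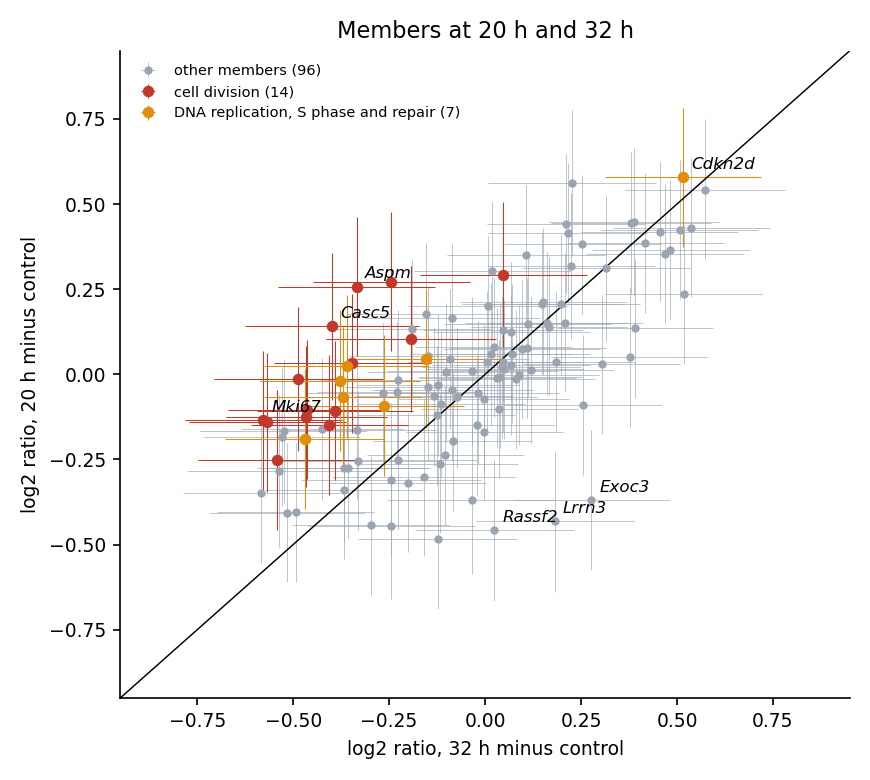
Log2 ratio of each member probe at 32 h (horizontal axis) and 20 h (vertical axis) to the control, with spot errors as bars and the line of equal values. All 14 cell division probes (red) and all 7 replication, S phase and repair probes (orange) lie above the line, whereas 48 of the 96 other probes (gray) do.

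The array carried 43 further probes for 32 of the member genes, of which 18, for 17 genes, were well above background on all arrays and 25 were not. The 18 had a median ratio at 4 h of -1.03, and 9 of them were at least 2-fold down, beside 8.07% of all probes well above background. Since every probe of these genes that met the rule is a member, the others could not both fall by 2 and recover, so their median and count follow in part from the choice of members and are a description. The second probes of *Mmp11* (-2.0 ± 0.20), *Txnip* (-1.95 ± 0.21), *Tns1* (-1.87 ± 0.32 and -1.86 ± 0.20) and *Nprl3* (-1.75 ± 0.21) differed from the member probe by at most 0.89. *Capn10*, a calpain, gave -0.13 in the control, -2.14 at 4 h, -0.38 at 20 h and -0.46 at 32 h by its member probe and 0.32 in the control, 0.56 at 4 h, 0.32 at 20 h and 0.39 at 32 h by the other. Both *Capn10* probes were far above background, and their ratios at 4 h were -2.01 ± 0.21 and 0.24 ± 0.20. The second of these lay near the median of 0.17 over all probes well above background, so only the member probe moved clearly. By their positions in the transcript, counted by the array design, they are different regions, starting at bases 1208 and 2581. *Setdb2* had 0.65 ± 0.35 by its other probe, *Pdk2* -0.26 ± 0.25, *Scrn3* -0.34 ± 0.27 and *Gdf5* -0.45 ± 0.36. In these 4 genes the other probe was dim in the control, at -4.06, -2.83, -3.17 and -4.09. Smaller falls were not limited to dim probes. The other *Ccdc80* probe was brighter in the control than the member probe, and fell to -0.96 ± 0.20 against -2.06. The other *Slco3a1* probe, at 0.58 in the control, fell to -0.71 ± 0.20 against -2.21. Those of *Mmp11* and *Nprl3*, also brighter in the control than their member probes, fell nearly as far as these. The part of dimness in the smaller ratios was not tested. Which transcripts each probe of the genes named here reads was not tested either.

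**Figure D5:**
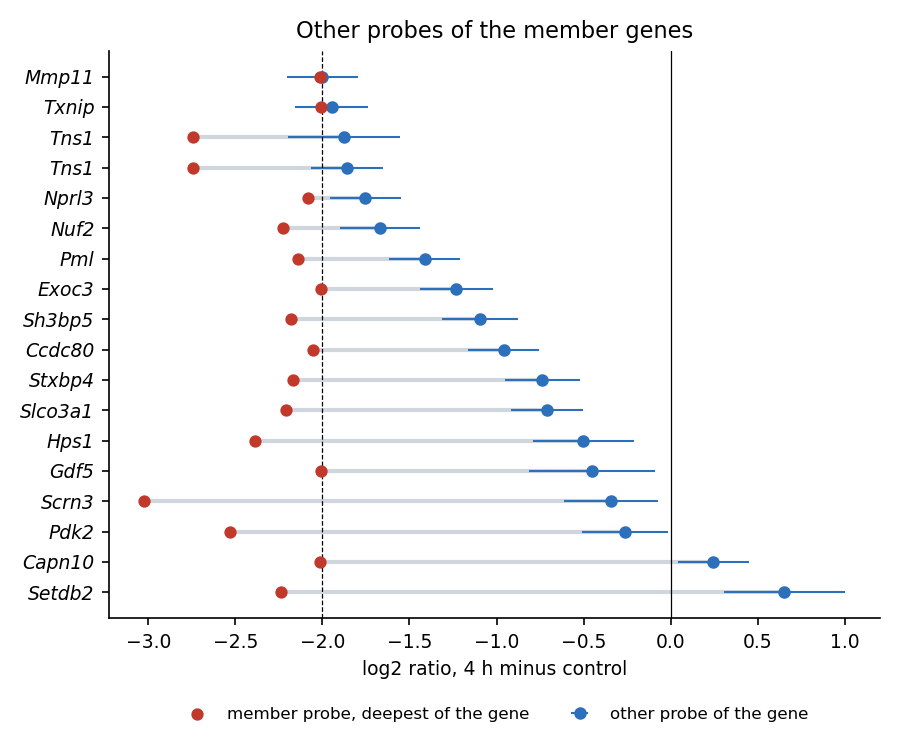
Log2 ratio of 4 h to control (horizontal axis) for the 18 other probes of member genes well above background on all arrays (blue, bars are spot errors), 1 row per probe, with the deepest member probe of the same gene in red; the dashed line is the threshold of -2. The other probes run from -2.0 in *Mmp11* to 0.65 in *Setdb2*, and only those of *Capn10* and *Setdb2* lie above the control.

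Of 10 genes with 2 member probes, *Pddc1* had the widest gap between them, -2.89 ± 0.33 against -2.25 ± 0.31, followed by *Rpusd3* with -3.21 ± 0.23 against -2.62 ± 0.22, and the 2 probes of each gene share the RNA and the array and are not replicates. On the genome (mm9), 4 pairs of member genes had probes within 200 kb. *Prc1* and *Rccd1* have probes 0.547 kb apart on opposite strands, and fell to -2.06 ± 0.20 and -2.03 ± 0.25. *Hddc3*, a hydrolase, lies 27.0 kb further and fell to -2.10 ± 0.22, while the 1 other detected probe between them, of *Unc45a*, had a ratio of 0.053. *Rccd1* and *Hddc3* are outside the naming rule.

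Of the 117 probes, 112 were matched to 102 genes of RefSeq, whose genomic span had a median of 25.3 kb, against 20.5 kb for 12372 genes of all probes well above background. The quartiles were 11 and 53.9 kb for members, and 8.28 and 48.5 kb for all. Members ran from *Wdr5b*, with 1.79 kb, to *Macrod2*, with 1998 kb, so both very short and very long genes were present. The GC content of the member probes had a median of 40% (25% to 55%), against 43.3% over all probes well above background, and members were 0.773% of the probes with a GC content of up to 38.3%, 0.418% of those from 40% to 45%, and 0.621% of those with more. The members also had a lower signal in the control, with a median of -0.53 against 0.0022. The part of probe GC and signal in the choice of members was not tested. By position on the array, split into 4 equal fields, 31, 34, 23 and 29 members were found. AATAAA stood in 12.8% of the member probes and in 14.4% of all probes well above background, and ATTAAA in 8.55% and 4.94%.

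Promoter sequence was at hand for 84 of the 102 genes, and 15 motifs were searched on both strands of the 300 bases. NRF1, GCATGCGC, stood in 9 member promoters, 11% (95% Wilson interval 5.74 to 19.1%), against 5.46% of genes with a probe well above background and 2.8% of all 27025 promoters. It was found in *Anln*, *Casc5*, *Prc1*, *Rfxank*, *Pddc1*, *Nudt7*, *Mri1*, *Nprl3* and *Mypop*. Over the first 250 bases NRF1 stood in 8.33% of member promoters (4.1 to 16.2%), against 4.55% of detected genes, a share inside the interval. With 15 motifs searched and no test run, nothing is read from the share of NRF1. The GC box GGGCGG stood in 64.3% of member promoters, 62.6% of detected genes and 35.9% of all. CCAAT stood in 41.7%, 39.4% and 37.9%, the ETS element CCGGAAG in 19%, 18.5% and 9.12%, and the CHR element TTTGAA in 15.5%, 12.2% and 18.1%. Within the members, TTTGAA stood in 6 of the 12 promoters of the cell division group, those of *Anln*, *Aspm*, *Casc5*, *Mki67*, *Oip5* and *Prc1*, and in 7 of the 72 others. This contrast was not seen without the last 50 bases, since in the 250 bases before the gene start TTTGAA stood in 1 of the 12, that of *Mki67*, and in 7 of the 72. In the *Mki67* promoter shown above TTTGAA occurs 2 times downstream of 3 CCAAT boxes, and in that of *Prc1* it follows 1.
The other motifs were the CRE TGACGTCA (3.57% of members, 3.37% of detected genes and 1.88% of all), the E-box CACGTG (5.95%, 10.2% and 7.24%), the TEAD element GGAATG (8.33%, 11.9% and 14.6%) and the E2F element TTCCCGCC (4.76%, 4.01% and 2.24%). The YY1 element AAGATGGC had 3.57%, 4.88% and 2.88%, the AP-1 element TGAGTCA 1.19%, 3.59% and 5.17%, the heat shock element GAANNTTC 3.57%, 5.64% and 7.95%, and the antioxidant element TGACNNNGC 14.3%, 14.6% and 12.5%. The TATA box TATAAA had 5.95%, 7.6% and 14.2%, and the SMAD element GTCTAGAC was in no member promoter, beside 0.215% of detected genes. A match shows the letters only, and binding was not measured.

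A start of another gene on the opposite strand within 1000 bases upstream was found for 21 of the 84 genes (25%) and for 18.2% of the genes detected. Of the 21 partners, 12 had a probe well above background, none was a member, and their ratios at 4 h had a median of -0.18. Of the 12, 3 were at least 2-fold down, beside 10.3% of all gene symbols, and 5 were above the control. The 3 were the partners of *Nudt22*, *Tube1* and *Cybasc3*. With so few partners, nothing is read from these counts. *Chchd10*, the partner of *Mmp11*, had a ratio of 2.63 at 4 h, so the 2 genes with facing starts went opposite ways. These genes were named after their values were seen.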

How the data were processed

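The authors deposited, for each spot of 4 one-color Agilent arrays, the intensity given by the scanner software (Agilent Feature Extraction 10.7.3.1, per the labels and file headers), with background subtracted, its error, and flags (other values) for outliers and for signals well above background. They also deposited a table of intensities, which was checked to be these signals divided by 1 constant per array over all 44397 spots of each array, its median values being 0.0590, 0.0757, 0.0546 and 0.0587 on a linear scale. Surrogate values of the software at dim spots did not enter the members.

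From the deposited intensities, log2 signals were averaged over the spots of a probe without an outlier flag, and the 75th percentile of each array over probes that are not controls was subtracted. A probe counted as well above background when at least 50% of its spots did. Such probes were 21057, 23295, 21750 and 20762 on the control, 4 h, 20 h and 32 h arrays. The number of arrays, 1 per condition, limits the precision. The median ratio at 4 h over probes well above background was 0.17 under this scaling and -0.23 under scaling by spike-in probes. The error of a ratio was propagated from the software's error of both arrays. The SAM test named by the study needs pairs and was not run. All columns of the deposited tables belong to the 4 samples.

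The members and lists were chosen with earlier results of these data known. Named were the 20 deepest falls with a symbol, genes with 2 or more member probes or on 1 of 42 gene lists, the 5 nearest to the threshold on each side, the 5 largest differences of 20 h and 32 h each way, the 10 highest signals in the control, and 5 genes whose other probes opposed the member most. This rule named 72 probes of 62 genes. A few of them are not reported here. Gene symbols are those of the array design, and RefSeq (GRCm38.p6) gave promoters and gene spans, matched by accession, symbol or synonym.

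Alternatives were other scalings, correction of the background by normexp (limma 3.58.1 in R 4.3.3, offset 50), the deposited table, flags, detection filters, thresholds and windows. Python 3.11.15, numpy 2.4.6, pandas 2.3.3, scipy 1.17.1 and matplotlib 3.10.9 were used.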

Additional observations from a re-analysis of the deposited data

Results flagged for a closer look

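In 3 members the 20 h and 32 h arrays lay on opposite sides of the control, each by more than its spot error. These were *Aspm* and the clone 2010317E24Rik, both of the cell division group, with a difference of 20 h minus 32 h of 0.59 and 0.52, and *Exoc3*, with -0.65. The other *Exoc3* probe did not share this, with -0.12 ± 0.21 at 20 h and 0.069 ± 0.21 at 32 h. The difference between the time points was not tested, since there was 1 array for each.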

How the results depend on the processing

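No alternative turned the direction of the fall at 4 h in any of the 72 named probes, whose ratios ran from -3.62 to -1.01 over 8 settings. The members at least 2-fold down were 114 under normexp and all 117 under the other 7 settings. These probes were chosen for a fall of at least 2 on the same arrays, so the kept direction follows largely from the rule and is no result. The number of probes meeting the rule moved more, because many lie near its limits. It was 281 with scaling by the median, 189 with quantile normalization, 306 with spike-in scaling (310 without 1 spike-in probe, added after the data were seen), 219 without scaling and 31 with normexp. It was 402 at a fall of -1.5, 4 at -3, and between 83 and 169 under the other settings of filters, window, names and unit. Of the 117 members, 114 were among the 281, 117 among the 189, 114 among the 306, 96 among the 219 and 28 among the 31. The members on a gene list numbered 33, and 68 with the median, 75 with spike-ins, 60 without scaling and 9 with normexp. The median ratio of the members at 4 h was -2.54, -2.42, -2.58 and -2.46 with median, quantile, spike-in and no scaling and -1.75 with normexp, whose offset shrinks the ratios of dim probes, and at 20 h it was 0.34 without scaling. The median of the other probes was -1.39 with the median, -1.42 with spike-ins and -1.31 without scaling. Of 15 motifs, 7 were more frequent in members than in detected genes over 300 bases and 5 over the first 250, and 4 changed side. Over 250 bases CHR (9.52% against 10.8%), ETS (13.1% against 14.1%) and CRE (2.38% against 2.82%) were less frequent in members and YY1 (3.57% against 2.1%) more frequent. After the data were seen, taking the fall from the mean of the other 3 arrays gave 121 probes, removing a trend with probe GC 111, and adding probes dim at 4 h 129. No paired analysis was possible because each condition has 1 array. The number of arrays limits these values, and signals near background, such as *Engase* at 4 h, are the least certain.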
